A study of Mus musculus with 6 samples.

Results

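Platelet-activating factor (PAF) is an ether-linked phosphatidylcholine that acts as a lipid messenger at very low amounts. The 10 genes described here encode the mouse enzymes that make it, release its precursor or break it down, together with the lysophosphatidylcholine acyltransferases (Lpcat genes) that refit membrane phospholipids with new fatty acids. They are Lpcat1, Lpcat2, Lpcat3, Lpcat4, Pla2g4a, Pla2g7, Pafah2, Pafah1b1, Pafah1b2 and Pafah1b3. Each was read from the probe set that carries its symbol alone and, where a gene has several, has the highest mean signal. All 10 were measured, with 1 probe set each, among 19938 genes.

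The cells were precursors of B cells that carried BCR-ABL1, a fused tyrosine kinase that drives Philadelphia-positive acute lymphoblastic leukaemia. The 3 wild-type samples (Dusp6 WT) and the 3 knockout samples (Dusp6 KO) shared the oncogene and a mixed C57Bl/6-SV129j background, and differed by the loss of Dusp6, a phosphatase that inactivates the kinase ERK. Total RNA was hybridised to Affymetrix arrays, and the deposited values are log2 signals. The labels give no age, no treatment, no deleted part of Dusp6, and no statement that samples of a genotype came from separate animals, cultures or clones. Errors and p-values thus cover no more than the variation among these 6 samples, and that variation may be technical.

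The mean log2 signal of Dusp6 was 12.44 ± 0.072 on the wild-type arrays and 9.08 ± 0.058 on the knockout arrays (SD, n = 3 each). Of 12 markers of B cell precursors, 11 were measured, and all lay at or above the 54th percentile of genes on every array. Igll1, the surrogate light chain gene, and Cd79a, a chain of the B cell receptor, were above the 99th. On the knockout arrays Dusp6 itself stood at the 55.4th to 56.7th percentile and the marker Rag2 at the 54.2nd to 55.3rd. The 54th percentile alone thus does not tell expression from background. Of these 11 markers 1 rose and 5 fell in knockout, with Dntt, the junctional nucleotide-adding polymerase, at −1.42. The part of such a shift of B cell genes in the differences below was not tested. Of 40 measured markers of other blood and stromal cells, 2 rose and 0 fell in limma (4 and 1 at an unadjusted p under 0.05). They were Lyz2, the lysozyme gene of myeloid cells (0.70), and Pecam1, an adhesion gene that many blood cells also express (0.51). In whole-sample RNA, fewer cells of a type and less RNA per cell cannot be told apart.

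PAF is made by 2 routes. In remodelling, a phospholipase A2, above all the cytosolic enzyme encoded by Pla2g4a, cuts a fatty acid such as arachidonate from a membrane ether phospholipid, and an acetyltransferase then adds acetate to the remaining lyso-PAF. In the other route PAF is built anew along the ether lipid pathway. PAF acetylhydrolases end the signal by removing the acetate, and Lpcat enzymes can instead put a long fatty acid back on lyso-phospholipids. Pla2g4a is a textbook substrate of ERK as a protein, and nothing here measures that modification.

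The group was chosen by gene function with the log2 differences between knockout and wild type already known, Lpcat2 being among the largest decreases of the series. These differences are therefore a description, without a test. A gene was called when its limma p-value, adjusted over all 19938 genes by the Benjamini-Hochberg method, lay under 0.05. By that rule 3 of the 10 were called higher in knockout and 2 lower, where 9.66% and 10.2% of all genes were. The 2 genotypes had no overlapping values in 7 of the 10, against 35.7% of all genes. In 4 of these the knockout arrays were higher (17.3% of all genes) and in 3 lower (18.4%). Differences of at least 2-fold were found in 2 of the 10 (1.29% of all genes), 1 higher and 1 lower, against 0.787% and 0.507% of all genes. Their median log2 difference, knockout minus wild type, was 0.023, against 0.0018 over all genes.

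**Figure D1:**
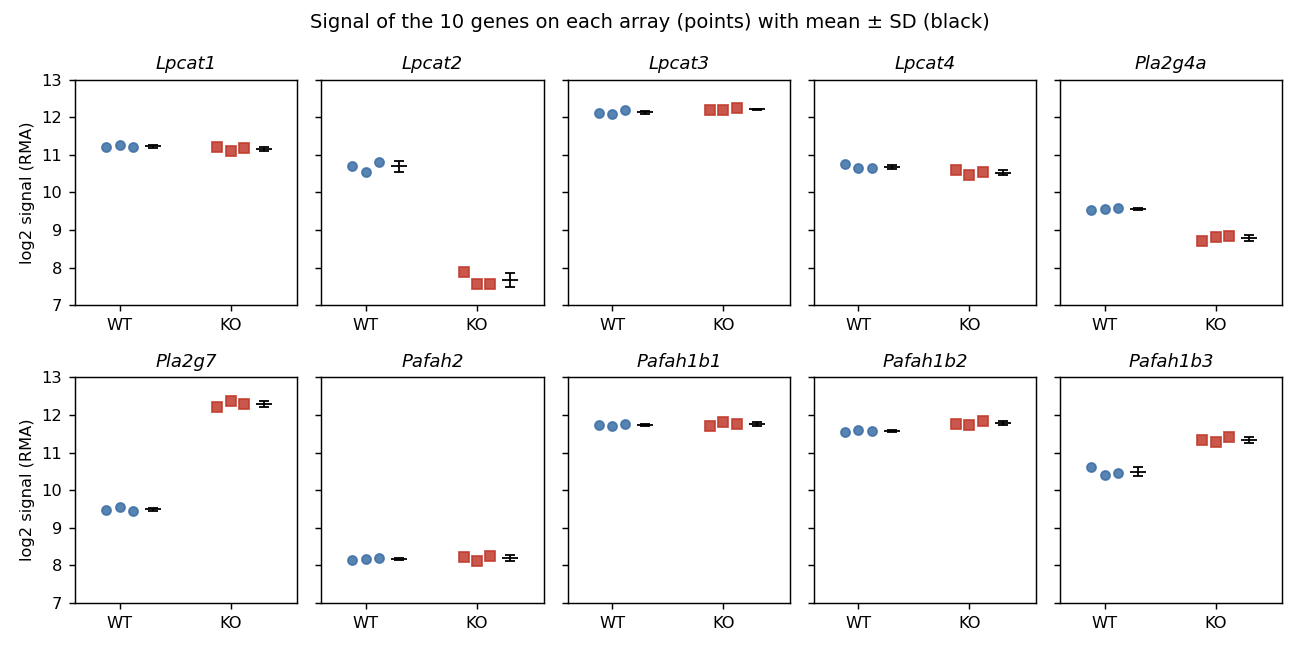
Log2 signal (vertical axis) of each of the 10 genes on the 3 wild-type arrays (blue circles) and the 3 knockout arrays (red squares), with the group mean and SD in black. Lpcat2 drops from about 10.69 to 7.67 and Pla2g7 climbs from 9.49 to 12.30, while Lpcat1, Pafah1b1 and Pafah2 overlap between the genotypes.

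Lpcat2 encodes the inducible acetyltransferase that makes PAF from lyso-PAF in inflammatory cells, and also acts as an acyltransferase. Its log2 signals were 10.71, 10.55 and 10.82 in wild type and 7.88, 7.57 and 7.56 in knockout. Every knockout array was below every wild-type array, with a gap of 2.67 between the nearest values. The mean fell by 3.02 on the log2 scale (SE 0.095; 95% interval −3.24 to −2.81), which is 8.13-fold, and 7 of 19938 genes had a more negative difference. Its spread between arrays was the widest of the 10 genes in both genotypes (SD 0.14 in wild type and 0.18 in knockout). On the knockout arrays it stood at the 27.6th to 33.4th percentile of genes, down from the 72.2nd to 76.0th. No test against background was made, so the size of the decrease is less certain than its direction.

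The other Lpcat genes moved little. Lpcat1, which makes the saturated phosphatidylcholine of lung surfactant and can also form PAF, had signals of 11.21 to 11.26 in wild type and 11.10 to 11.21 in knockout. These ranges overlapped, and the difference of −0.062 had a 95% interval of −0.16 to 0.040. Lpcat3, which loads polyunsaturated fatty acids into membranes, had a difference of 0.081 (95% interval −0.017 to 0.18) and was not called, although its highest wild-type value lay 0.010 under its lowest knockout value. Lpcat4, which acts on lysophosphatidylcholine and lysophosphatidylethanolamine, averaged 10.68 in wild type and 10.53 in knockout. Its difference of −0.15 (95% interval −0.27 to −0.031) lay just outside the calls over all genes, and it was called when dim genes were left out or when limma's trend and robust options were used. The intervals of these 3 genes all lie far from the interval of Lpcat2.

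Pla2g4a encodes cytosolic phospholipase A2 alpha, which releases arachidonate and leaves the lyso-phospholipid that acetyltransferases use. Its log2 signals were 9.54, 9.56 and 9.57 in wild type and 8.71, 8.82 and 8.84 in knockout. The groups stood 0.70 apart at their nearest values, and the wild-type arrays were the more alike (SD 0.016, against 0.071 in knockout). The mean was lower in knockout by a factor of 1.71 (log2 difference −0.77, SE 0.047). Pla2g4a stood at the 61.0th to 61.4th percentile of genes in wild type and the 50.9th to 53.1st in knockout. Dusp6 stood at the 55.4th to 56.7th in knockout. Without a test against background, the size of the decrease of Pla2g4a is less certain than its direction. The RNAs of Pla2g4a and of the acetyltransferase gene Lpcat2 were thus both lower in the knockout samples. That of Lpcat1, which can also form PAF, was not called (−0.062).

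Pla2g7 encodes the secreted, plasma-type PAF acetylhydrolase, which also cleaves oxidised phospholipids and is best known from macrophages. Its log2 signals were 9.47, 9.54 and 9.45 in wild type and 12.22, 12.37 and 12.30 in knockout. No values overlapped, and the nearest were 2.68 apart. The mean rose by 2.81 on the log2 scale (SE 0.051; 95% interval 2.69 to 2.92), and 12 genes on the arrays had a larger increase. On the knockout arrays Pla2g7 stood at the 92.0th to 93.1st percentile of genes, up from the 60.1st to 60.9th. Because Pla2g7 is known from macrophages, the myeloid markers are given beside it. Of 16 measured, 1 rose (Lyz2) and 0 fell in limma (1 and 1 at an unadjusted p under 0.05). The sum of their log2 signals was 116.9 to 117.9 in wild type and 118.0 to 118.1 in knockout. Lyz2 alone differed by 0.70, and the median difference of the 16 was 0.017. Macrophage-defining Csf1r (difference 0.0091) and Adgre1 (−0.021) stayed at or below the 28th percentile of genes on every array. Brighter Cd68 stood at the 59.4th to 61.2nd percentile in wild type and the 57.6th to 59.5th in knockout. Cd68 differed by −0.18 and was not called. Lyz2 stood at the 55.1st to 55.9th percentile in wild type and the 62.1st to 64.3rd in knockout. The part of such cells in the rise of Pla2g7 was not tested.

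The intracellular acetylhydrolases were split. Pafah2, a relative of Pla2g7 that protects cells from oxidised phospholipids, had signals of 8.14 to 8.18 in wild type and 8.11 to 8.25 in knockout. Its difference was 0.027 (95% interval −0.080 to 0.13). The type I enzyme is built from 2 catalytic subunits, encoded by Pafah1b2 and Pafah1b3, and the regulatory subunit Pafah1b1. Pafah1b3 was at 10.62, 10.41 and 10.45 in wild type and 11.33, 11.27 and 11.41 in knockout. The groups were 0.65 apart, and the mean rose 1.79-fold (log2 difference 0.84, SE 0.063). Pafah1b2 was at 11.56, 11.59 and 11.57 in wild type and 11.77, 11.74 and 11.83 in knockout, again without overlap. Its increase was small, at 1.16-fold (log2 difference 0.21, SE 0.043), the smallest of the called genes among the 10. Pafah1b1, better known as LIS1, the dynein regulator whose loss causes lissencephaly, had a difference of 0.019 (95% interval −0.082 to 0.12) with overlapping values.

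**Figure D2:**
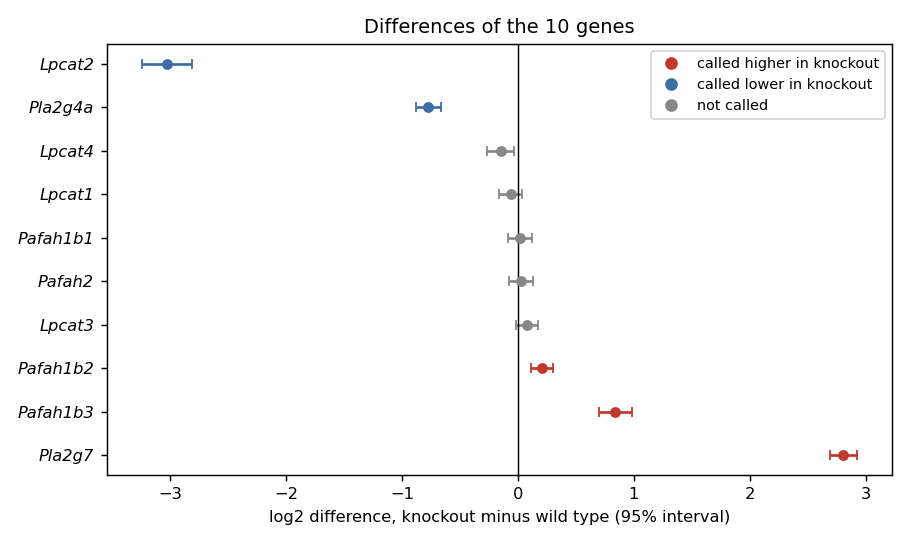
Log2 difference, knockout minus wild type (horizontal axis), of the 10 genes in order, with limma's 95% interval as bars and colour for the call over all genes. Lpcat2 and Pla2g7 stand alone at −3.02 and 2.81, Pla2g4a and Pafah1b3 form a middle pair at −0.77 and 0.84, and the other 6 lie between −0.15 and 0.21.

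By size the 10 genes fell into 3 levels. Taken without sign, the intervals of Lpcat2 (log2 −3.24 to −2.81) and Pla2g7 (2.69 to 2.92) overlapped, as did those of Pafah1b3 (0.70 to 0.98) and Pla2g4a (−0.88 to −0.66). The called increases were all in acetylhydrolase genes that break PAF down, and the called decreases were in the phospholipase and the acetyltransferase of the remodelling route. That is a description of 5 genes and of RNA, since neither enzyme activity nor PAF was measured.

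The 10 genes lie on 10 different chromosomes, so no pair is adjacent. RefSeq promoter windows of GRCm38.p6 were found for 9 of them, and the 250 bases before the start are printed for the genes with the largest decrease and increase, Lpcat2 (chr8:92855083-92855332, plus strand) and Pla2g7 (chr17:43568201-43568450, plus strand), and for Pla2g4a (chr1:149961291-149961540, minus strand; the table also holds a second start). Capitals mark CpG dinucleotides.
Lpcat2: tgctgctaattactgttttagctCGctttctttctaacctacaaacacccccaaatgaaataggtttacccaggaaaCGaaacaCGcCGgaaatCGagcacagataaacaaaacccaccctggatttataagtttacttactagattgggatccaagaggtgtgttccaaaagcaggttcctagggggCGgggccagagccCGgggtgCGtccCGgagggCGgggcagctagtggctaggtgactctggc
Pla2g7: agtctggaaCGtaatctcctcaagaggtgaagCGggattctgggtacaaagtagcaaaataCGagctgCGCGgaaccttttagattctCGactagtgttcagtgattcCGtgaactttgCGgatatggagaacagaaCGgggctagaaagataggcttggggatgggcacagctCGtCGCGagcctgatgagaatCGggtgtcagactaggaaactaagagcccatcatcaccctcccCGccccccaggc
Pla2g4a: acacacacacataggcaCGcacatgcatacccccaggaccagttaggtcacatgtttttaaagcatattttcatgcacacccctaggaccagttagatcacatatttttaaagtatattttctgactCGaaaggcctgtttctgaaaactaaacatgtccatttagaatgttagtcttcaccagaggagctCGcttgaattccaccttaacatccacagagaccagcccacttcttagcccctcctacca
The windows of Lpcat2 and Pla2g7, whose RNAs moved in opposite directions, hold 10 and 14 CpGs with 51.2% and 52.8% G and C. The Pla2g4a window holds 3 CpGs and 43.2% G and C. Over all 32851 windows the median was 6 CpGs and 52.4%. The richest windows of the 10 genes were one of Pafah1b2, which was called, with 39 CpGs, and that of Lpcat4, which was not, with 38. None of 5 motifs searched on both strands occurs in the 3 windows printed: the AP-1 site TGACTCA (4.46% of all windows), the ETS-type sequence CCGGAAG (6.91%), the PU.1-type sequence GAGGAAG (10.6%), the E-box CACGTG (6.02%) and the cyclic AMP element TGACGTCA (1.55%). This says only that these exact letters are not in these windows, since other forms of the sites were not searched. Of all 16 windows of the genes, 5 held a motif. The called Pafah1b2 had the E-box in its window of 39 CpGs and the ETS-type sequence in another. The PU.1-type sequence was in windows of Pafah2, Lpcat3 and Pafah1b1, which were not called.

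Genes beside the changed ones on the chromosome were read as well, 5 tested genes on each side. They were taken by order alone, and distances in bases were not measured. Around Lpcat2, 1 of 10 neighbours was called. It was the long non-coding RNA gene Crnde, which rose by 0.92 while Lpcat2 fell, and the other 9 lay between −0.091 and 0.082. Those 9 were dim, with wild-type means of 5.96 to 8.32 against array medians of 8.38 to 8.42. No test against background was made, so whether they could fall at all cannot be told. Around Pla2g7, 4 of 10 rose and 0 fell in limma (5 and 0 at an unadjusted p under 0.05), by less than Pla2g7 itself: the calcineurin regulator gene Rcan2 (0.83), the death receptor gene Tnfrsf21 (0.80), the oxysterol hydroxylase gene Cyp39a1 (0.41) and the adhesion receptor gene Adgrf1 (0.36). Genes between them, such as Adgrf5 and Mep1a next to Pla2g7, were not called (0.025 and −0.0064). These 2 were also dim, with wild-type means of 7.12 and 6.35. Of the called neighbours, Cyp39a1 (7.48) and Rcan2 (7.86) were dim in wild type too, while Adgrf1 was at 8.51 and Tnfrsf21 at 10.57. Pla2g4a lies 2 tested genes from Rgs18, a regulator of G protein signalling, which rose 32.0-fold, and next to the inducible cyclooxygenase gene Ptgs2, which was not called (0.033). Of its 10 neighbours 2 were called, both higher. Around Pafah1b3, 2 of 10 rose and 1 fell, with the lipase gene Lipe at 0.68.

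**Figure D3:**
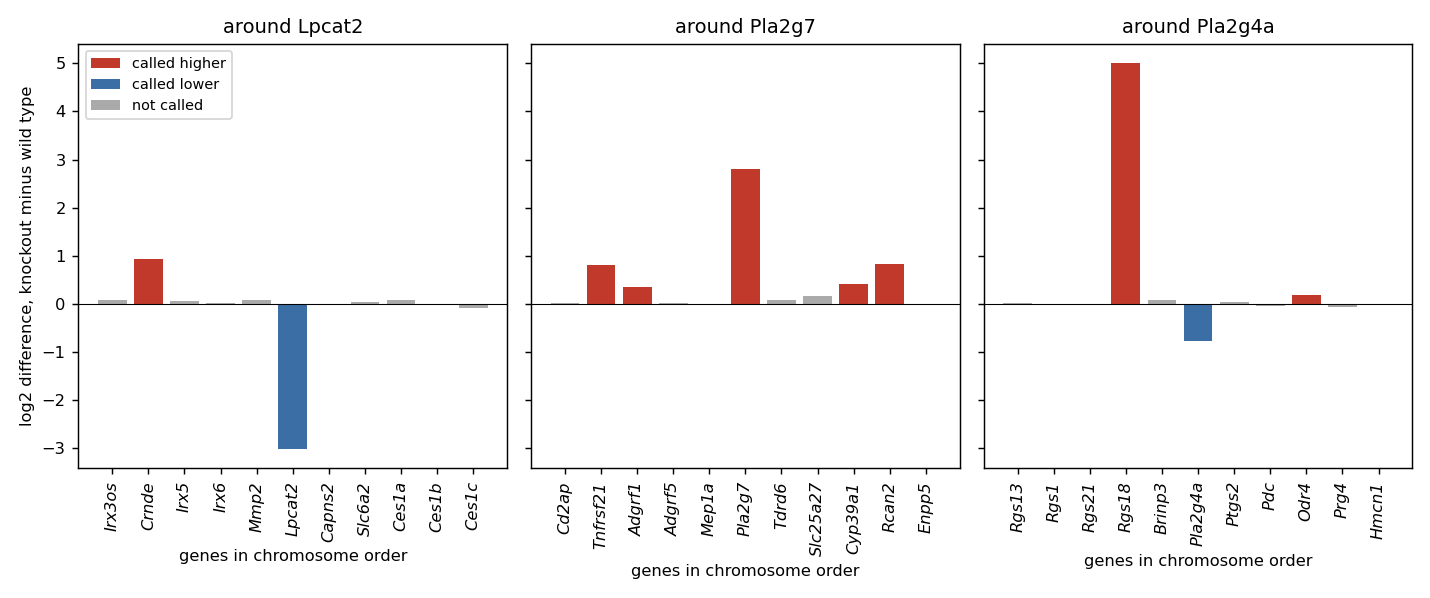
Log2 difference, knockout minus wild type (vertical axis), of Lpcat2, Pla2g7 and Pla2g4a and of the 5 tested genes on each side of them in chromosome order; colour gives the call. Lpcat2 falls among dim neighbours with differences near 0 apart from Crnde, and 4 neighbours of Pla2g7 rise with it. Rgs18, 2 tested genes from the lower Pla2g4a, rises 32.0-fold.

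The decrease of Lpcat2 was compared with the differences of other genes by the root mean square distance over the 6 arrays. Each gene was first centred on its own mean. Genes with symbols of Gm and a number, starting with LOC or ending in Rik were left out. The 5 nearest genes were Tcf7l2 (0.12), which relays Wnt signals to DNA, Dnase1l3 (0.15), a secreted nuclease, Zc3h12c (0.18), a ribonuclease of the Regnase family, Zdhhc15 (0.21), a palmitoyltransferase, and Ehd3 (0.21), an endocytic recycling ATPase. With 3 arrays a group, this distance mostly measures the size of the decrease.

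Genes that act before, beside and after these enzymes were taken from 7 lists, of which 109 of 116 genes were measured. In all 16 were called higher and 12 lower, which is 25.7% against 19.8% of all genes. Adjusted p-values below are limma's over all genes.

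Receptors for PAF and lysophospholipids were called in 1 direction. Of 11 measured, 6 rose and 0 fell in limma (7 and 0 at an unadjusted p under 0.05). Over all genes 9.66% were called higher and 10.2% lower. The median log2 difference of the receptors was 0.17 against 0.0018 over all genes. Gpr132, a receptor linked to lysophosphatidylcholine and oxidised fatty acids, had log2 signals of 9.07, 9.28 and 9.20 in wild type and 10.61, 10.37 and 10.47 in knockout. No values overlapped, and it rose 2.46-fold (log2 difference 1.30, SE 0.072; adjusted p = 1.4e-06). Lpar1, a receptor for lysophosphatidic acid, was at 9.36, 9.56 and 9.58 in wild type and 10.20, 10.07 and 10.22 in knockout, and rose by 0.66 (SE 0.068; adjusted p = 1.0e-04). Lpar2, another such receptor, rose by 0.37 (adjusted p = 0.00036).

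The PAF receptor gene Ptafr was at 7.97, 8.07 and 7.96 in wild type and 8.42, 8.28 and 8.40 in knockout. It rose by 0.37 (SE 0.053; adjusted p = 0.00091) without overlap, from a signal between the 36.6th and 38.8th percentile of genes. Lpar4 (0.25) and the lysophosphatidylserine receptor gene Gpr34 (0.17) also passed, at still dimmer signals. The call of Lpar4 was lost without wild-type replicate 3 (adjusted p = 0.055) or knockout replicate 2 (0.086) or 3 (0.066). That of Gpr34 was lost without wild-type replicate 1 (adjusted p = 0.11), 2 (0.068) or 3 (0.053) or knockout replicate 2 (0.087). Without wild-type replicate 3 or knockout replicate 2, 4 of the 11 receptors were thus called. When genes under the median signal were left out, 3 of the receptors were called, since Ptafr, Lpar4 and Gpr34 were not tested. The receptors that were not called included Lpar6 (0.047), P2ry10 (0.12) and Gpr174 (−0.12).

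**Figure D4:**
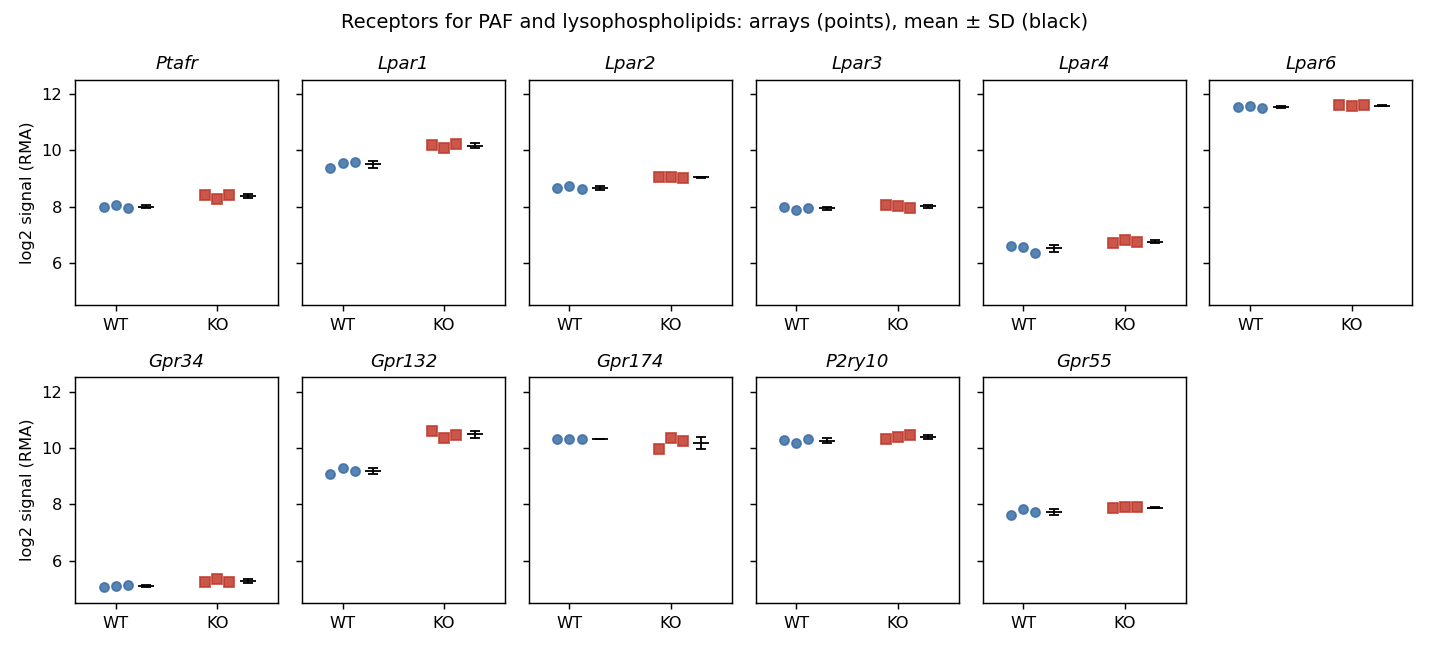
Log2 signal (vertical axis) of 11 receptor genes on the wild-type (blue circles) and knockout (red squares) arrays, with mean and SD in black. Gpr132 shows the largest step, from 9.18 to 10.48, followed by Lpar1 from 9.50 to 10.16, and Ptafr moves by 0.37.

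Other acyltransferases of the lysophospholipid and glycerol-phosphate families gave 2 that rose and 2 that fell of 14. Agpat2, which makes phosphatidic acid and is mutated in lipodystrophy, rose by 0.57 (SE 0.079; adjusted p = 0.00077). Gpam, the mitochondrial enzyme that starts glycerolipid synthesis, fell by 0.54 (SE 0.050; adjusted p = 5.0e-05). The smaller changes of Agpat3 (−0.19, adjusted p = 0.028) and Lpgat1 (0.16, adjusted p = 0.023) were each lost on leaving out single arrays. Agpat3 was lost without wild-type replicate 2 (adjusted p = 0.097) or 3 (0.061) or knockout replicate 2 (0.094) or 3 (0.078), and Lpgat1 without wild-type replicate 3 (0.095) or knockout replicate 2 (0.054) or 3 (0.079). Each loss brings its direction in this list down to 1 gene. Mboat7, the arachidonate-specific lysophosphatidylinositol acyltransferase, had a difference of 0.0052.

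Ether lipid and phosphocholine synthesis, the pathway that supplies PAF's backbone and headgroup, gave 3 that rose and 2 that fell of 17. Pcyt1b, an enzyme that activates phosphocholine with CTP, had signals of 9.01, 8.90 and 8.89 in wild type and 7.96, 7.89 and 7.84 in knockout. It was 2.05-fold lower (log2 difference −1.03, SE 0.051; adjusted p = 6.5e-07). Its sister gene Pcyt1a rose slightly (0.16; adjusted p = 0.028), a call lost without wild-type replicate 1 (adjusted p = 0.11) or 2 (0.074) or knockout replicate 2 (0.072) or 3 (0.094). Chpt1, the phosphotransferase that completes phosphatidylcholine, fell by 0.68 (SE 0.058; adjusted p = 2.9e-05). Tmem86a, a lysoplasmalogenase, rose by 0.43, and Far2, which makes fatty alcohol for ether bonds, rose by 0.36. The first committed enzymes of the ether bond, Gnpat (0.082) and Agps (−0.12), were not called, nor was Tmem189, the plasmalogen desaturase gene (0.12).

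Among 24 other phospholipases A2 and lysophospholipases, 3 rose and 4 fell. Plaat3 (−0.59, adjusted p = 2.4e-05), a phospholipase best known from fat cells, and Lyplal1 (−0.55, adjusted p = 5.5e-05) fell most. Pla2g4c, a calcium-independent relative of Pla2g4a, fell by 0.41 (adjusted p = 0.00039), and the secreted enzyme gene Pla2g2f rose by 0.44 (adjusted p = 0.00034). The calcium-independent enzyme gene Pla2g6 had a difference of 0.15 and was not called.

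Enzymes that turn freed arachidonate into eicosanoids gave 0 that rose and 2 that fell of 16 in limma (2 and 2 at an unadjusted p under 0.05). Alox5ap, which presents arachidonate to the leukotriene-forming lipoxygenase, was at 9.85, 9.76 and 9.83 in wild type and 9.40, 9.38 and 9.52 in knockout, a fall of 0.38 (SE 0.051; adjusted p = 0.00059). Ptges2, a prostaglandin E synthase, fell by 0.24 (adjusted p = 0.0052). Alox5 itself differed by 0.060 and was not called.

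Scd1, which puts the first double bond into saturated fatty acids, rose by 0.48 (adjusted p = 0.00023). Fads2, which desaturates the precursors of arachidonate, fell by 0.44 (adjusted p = 0.00020), and Fads3 rose by 0.26 (adjusted p = 0.0030). They were the called genes among 12 measured targets of the sterol receptor LXR and desaturation genes, a list chosen because LXR is known to induce Lpcat3. Of the known LXR targets that were not called, the cholesterol exporter gene Abcg1 had the largest difference (0.22, adjusted p = 0.058, no overlap), followed by Abca1 (0.11), Srebf1 (−0.032) and Mylip (0.0070). With dim genes left out, or with trend and robust options, this list had 3 called higher and 2 lower. Of 15 dynein partners of Pafah1b1, the dynactin gene Dctn1 was called lower (−0.21, adjusted p = 0.030) and 0 higher in limma, with the same counts at an unadjusted p under 0.05. The called share of this list was 6.67%, against 19.8% of all genes. The call of Dctn1 was lost without wild-type replicate 1 (adjusted p = 0.083) or 2 (0.10) or knockout replicate 2 (0.10) or 3 (0.081), which leaves 0.

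**Figure D5:**
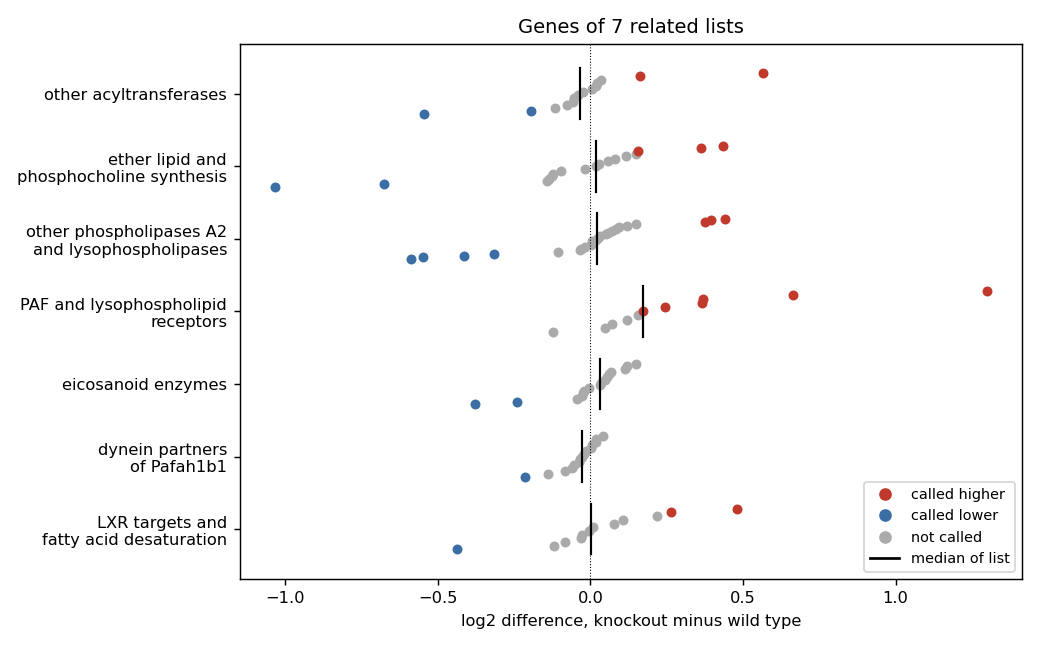
Log2 difference, knockout minus wild type (horizontal axis), of every measured gene in the 7 lists, with 1 point a gene, colour for the call and a black bar at the median of the list. The receptors have their called genes on the right of 0 (median 0.17). The eicosanoid enzymes (2 of 16 called, median 0.032) and dynein partners (1 of 15, median −0.027) have few calls, on the left. Those are smaller shares than the 19.8% of all genes. The other lists have calls on both sides.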

How the data were processed

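The deposited table holds log2 signals, 1 value per probe set and array, and the authors used RMA and Partek 6.5, per the submitters' processing notes. RMA corrects background, equalises arrays and summarises probes, with version and settings not given in the sources used here. A log2 scale shows in the values (array medians 8.38 to 8.42). No further normalization was applied. For arrays the number of samples limits precision: the median SE of a difference was 0.051.

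Of 35556 probe sets, 21789 carried 1 symbol, 1621 several and 12146 were unnamed here. A gene was represented by its probe set with the highest mean, giving 19938 genes. Limma 3.58.1 in R 4.3.3 was fitted over all genes and the 6 arrays with genotype as the only term, with Benjamini-Hochberg adjustment. The procedure was tested on simulated data, where 40.8% of log2 differences of 0.25, 89.6% of 0.5 and 99.8% of 1 were recovered. Fewer genes differed there than were called here, so these shares need not hold for these data. The 10 genes and the lists were chosen with earlier results of these data known. Named genes were these 10, Dusp6, up to 4 called genes with the largest differences per list and the 5 genes nearest to Lpcat2; other genes were chosen after their values were seen. Peds1 was read as Tmem189. Other normalizations, filters, variance models and left-out arrays were tried as alternatives.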

Additional observations from a re-analysis of the deposited data

How the results depend on the processing

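In 14 alternative settings, the 5 called genes of the 10 kept their direction, and all but the 2-fold rule kept their calls: Lpcat2 ranged from −3.13 to −2.96, Pla2g7 from 2.77 to 2.85, Pla2g4a from −0.80 to −0.73, Pafah1b3 from 0.80 to 0.90 and Pafah1b2 from 0.19 to 0.23. Lpcat4 gained a call when genes under the median signal were left out (adjusted p = 0.029), when those under the 25th percentile were left out (0.046) and with trend and robust options (0.043). The uncalled Pafah1b1 (−0.0069 to 0.045) and Pafah2 (−0.0014 to 0.066) crossed 0. Requiring 2-fold left 157 genes higher and 101 lower, 1 of the 10 higher and 1 lower, and 1 list gene higher (Gpr132) and 1 lower (Pcyt1b), by construction. With any 1 array left out, 1491 to 1730 genes were higher and 1512 to 1959 lower, 3 of the 10 higher and 2 lower, and 13 to 16 list genes higher and 10 to 12 lower. Replicate numbers are shared by the genotypes, and the labels do not say whether a number marks a shared culture or day. Same-numbered arrays deviated from their group means with correlations of 0.0098, −0.12 and 0.053, and differently numbered ones with −0.15 to 0.13. With 3 arrays a group, these values cannot tell whether same-numbered arrays were paired. With the replicate number as a block, 1681 genes were higher and 1764 lower, and Agpat3 (adjusted p = 0.066), Lpgat1 (0.059), Pcyt1a (0.054), Gpr34 (0.052) and Dctn1 (0.051) lost their calls, as Gpr34 did with trend and robust options (0.10). No arrays were tested against background, which limits dim signals such as Lpcat2 in knockout.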
